A study of Mus musculus with 9 samples.

Results

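The canonical histone genes were defined as every symbol in the expression files that starts with Hist1h, Hist2h, Hist3h or Hist4h, which gave 68 of the 23997 symbols. By the class in their symbols, 6 belong to the linker histone H1, 18 to H2A, 19 to H2B, 12 to H3 and 13 to H4. The H2B genes include Hist3h2bb-ps, which its symbol marks as a pseudogene. The files place 54 of them in the large cluster on chromosome 13, 10 on chromosome 3, 3 on chromosome 11 and 1 on chromosome 6 (build mm10). They were measured in retinal ganglion cells (RGCs) that had been immunopanned from C57BL/6J mice labelled as 8 weeks old. Control eyes received saline in the anterior chamber, and Mild IOP and Moderate IOP eyes received polystyrene microbeads, which raised the intraocular pressure (IOP) for 2 weeks by 1 to 4 mmHg (Mild) or by at least 4 mmHg (Moderate). RNA from 12 Control, 12 Mild IOP and 6 Moderate IOP retinas was pooled by group and sequenced as 3 technical replicates of each pool, so the 9 libraries describe 3 pools. All standard errors and FDR values below therefore cover the spread between technical replicates and not that between animals.

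Nucleosomes wrap DNA around an octamer of H2A, H2B, H3 and H4, and H1 binds the linker DNA between them. Canonical histone genes are mostly transcribed in S phase, lack introns, and end their mRNA at a conserved stem-loop bound by SLBP in place of a poly(A) tail. Postmitotic neurons rely largely on replacement histones such as H3.3 and H2A.Z, whose mRNAs are polyadenylated, although some canonical histone genes also give polyadenylated transcripts in differentiated cells. The libraries here were primed with a modified oligo-dT primer, so a histone mRNA that ends at its stem-loop offers the primer no tail.

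The stem-loop is shown for the members that the comparisons turn on, read from GENCODE M21 transcripts (build GRCm38) with its 16 bases in capitals and 5 flanking bases on either side. The letters searched were GGNNCTTTTNAGNNCC on the transcript strand.

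Hist1h1e: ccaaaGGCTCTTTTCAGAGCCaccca
Hist1h2ac: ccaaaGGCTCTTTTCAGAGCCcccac
Hist1h2ag: acaaaGGCTCTTTTCAGAGCCaccta
Hist3h2ba: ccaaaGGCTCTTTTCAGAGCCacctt
Hist1h4c: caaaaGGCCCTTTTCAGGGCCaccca
Hist1h4d: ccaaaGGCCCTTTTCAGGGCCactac
Hist2h4: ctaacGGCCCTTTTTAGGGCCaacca

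These sites lie on the minus strand at chr13:23621777-23621802 (Hist1h1e), chr13:23683472-23683497 (Hist1h2ac), chr13:22042478-22042503 (Hist1h2ag), chr13:23698084-23698109 (Hist1h4c) and chr3:96262934-96262959 (Hist2h4), and on the plus strand at chr11:58949344-58949369 (Hist3h2ba) and chr13:23581945-23581970 (Hist1h4d). The letters were present in the matched transcript of 43 of the 68 members and in 0.0875% of the 141767 transcripts searched. These copies fell into 6 sequences. The form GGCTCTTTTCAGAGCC was held by 25 members, all of them H1, H2A, H2B or H3 genes, and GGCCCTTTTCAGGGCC by 7, all of them H4 genes. In 41 of these 43 members the locus of the expression files ends 4 to 8 bases past the stem-loop, so the files measure them only up to it. The locus of Hist1h2be runs 1861 bases past the stem-loop, and that of Hist1h4j ends before it. The GENCODE transcript ran at least 100 bases further in 22 members. Among them were Hist1h1e (1153 bases past the stem-loop), Hist1h2ac (2010 bases), Hist3h2ba (169 bases), Hist1h4c (454 bases) and Hist1h4d (770 bases), whereas that of Hist1h2ag ended after 23 bases. Such a long transcript was annotated for 7 of the 11 most abundant members that hold the letters and for 15 of the other 32.

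Expression was concentrated in few members. Of the 68, 67 had a value above 0 in at least 1 library and 36 in all 9, while Hist1h1t, the testis H1, was at 0 everywhere. Mean FPKM, after scaling between libraries, was at least 10 for 12 members and below 1 for 28. Hist1h4d, an H4 gene, led with a mean of 202 FPKM and made up 24.9% of the summed mean of all members. Hist3h2ba (H2B, 109 FPKM) and Hist3h2a (H2A, 107 FPKM), neighbours on chromosome 11, followed, and these 3 genes made up 51.7%. Next came Hist1h2ao (61.8 FPKM), Hist2h2aa1 (54 FPKM), Hist1h2bc (47.6 FPKM) and Hist1h1e (33.4 FPKM), and the 12 highest together held 86.6%. No H3 member was among them, and the 12 H3 genes summed to only 10.3 ± 8.74 FPKM in Control libraries (mean ± SD, n = 3).

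**Figure D1:**
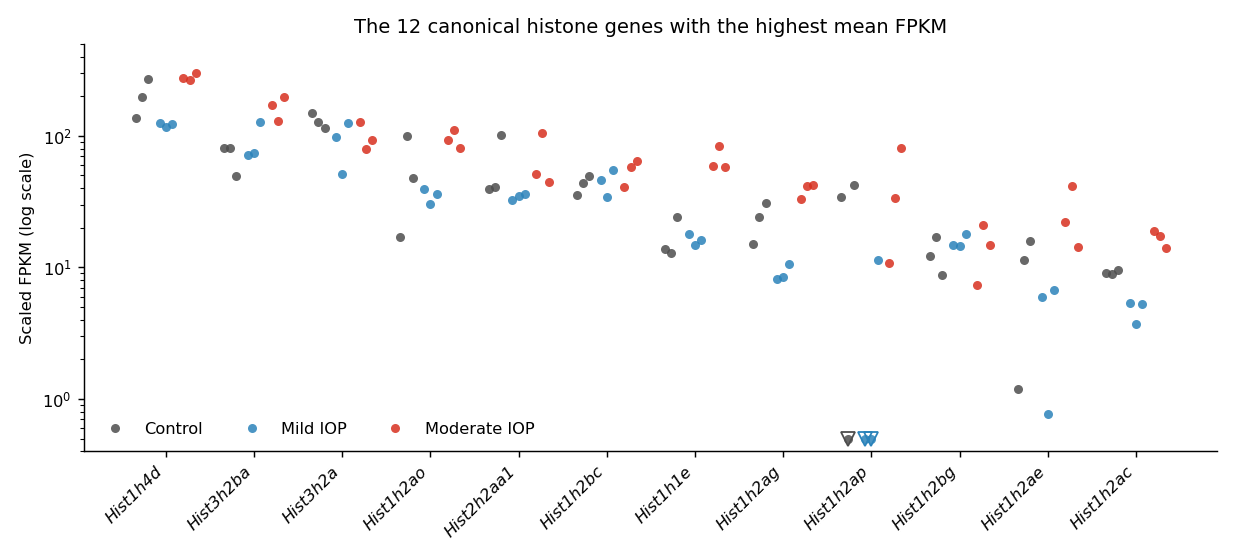
Scaled FPKM (log scale) of the 12 canonical histone genes with the highest mean, each point a library; open triangles mark values below 0.5, drawn at 0.5. Hist1h4d stands above 100 FPKM in all 9 libraries, and the 3 Moderate IOP libraries of Hist1h1e (58.4 to 83.6 FPKM) lie above its other 6 (12.8 to 24 FPKM).

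The number of fragments behind these values was small. Derived from the confidence interval of each estimate, all members together had between 787 fragments (Mild IOP replicate 2) and 2750 fragments (Moderate IOP replicate 2), at an approximate depth of 4370000 to 7810000 fragments per library. Only 12 to 25 members had at least 10 fragments in a given library. FPKM also weighted short loci strongly. In Hist1h4d, whose locus spans 368 bases, 1 FPKM stood for as many fragments as 150 bases would give, whereas in Hist1h1e, which spans 782 bases, it stood for 619 bases. Summed over the Moderate IOP libraries, Hist1h1e rested on 772 fragments and Hist1h4d on 757, although their mean FPKM there was 67.1 and 280. These lengths are approximate, because the derived fragment number is imprecise.

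Summed over all members, FPKM was highest under Moderate IOP and lowest under Mild IOP. The Control libraries held 616, 784 and 865 FPKM, the Mild IOP libraries 538, 453 and 642 FPKM, and the Moderate IOP libraries 1017, 1142 and 1224 FPKM. Moderate IOP did not overlap with either other group, while Control and Mild IOP overlapped. The group means stood at 755 ± 127, 544 ± 94.5 and 1127 ± 104 FPKM (SD, n = 3), so that Moderate IOP was 1.49 times Control and 2.07 times Mild IOP, and Mild IOP 0.721 times Control. Relative to the sum of RGC marker genes given below, these ratios became 0.957, 1.09 and 0.877, so Moderate IOP no longer exceeded Control. As a share of the summed FPKM of all genes, histones made up 0.113%, 0.139% and 0.156% in Control, 0.11%, 0.0813% and 0.125% in Mild IOP and 0.167%, 0.197% and 0.189% in Moderate IOP. No test was made on these sums, and in a bulk sample a change in the number of cells cannot be told apart from a change in RNA per cell.

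The classes differed in how they took part. H1 genes summed to 19.4, 19.8 and 29.8 FPKM in Control, 18.8, 19 and 20.5 FPKM in Mild IOP, and 66.1, 94.6 and 71.1 FPKM in Moderate IOP, a Moderate IOP mean 3.36 times that of Control. Hist1h1e made up 16.8 of the mean 23 FPKM in Control and 67.1 of 77.3 FPKM in Moderate IOP. Hist1h1c averaged 2.57 and 6.66 FPKM in these groups, Hist1h1a 1.13 and 2.46 FPKM, Hist1h1b 1.88 and 0.72 FPKM and Hist1h1d 0.62 and 0.328 FPKM. Hist1h1t was at 0 throughout. H2A genes summed to 342 ± 64.4, 196 ± 53.5 and 455 ± 52.7 FPKM in Control, Mild and Moderate IOP, and H4 genes to 214 ± 64, 130 ± 8.43 and 315 ± 26.4 FPKM. Hist1h4d alone made up 203, 122 and 280 FPKM of the H4 sums. For H2A and H4 the Mild IOP libraries lay wholly below the others, and for H4 the Moderate IOP libraries also lay wholly above Control. H2B genes summed to 165 ± 19.4, 191 ± 41.2 and 274 ± 50 FPKM, in which Hist3h2ba alone accounted for 70.7, 91 and 167 FPKM. H3 sums overlapped between all groups.

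**Figure D2:**
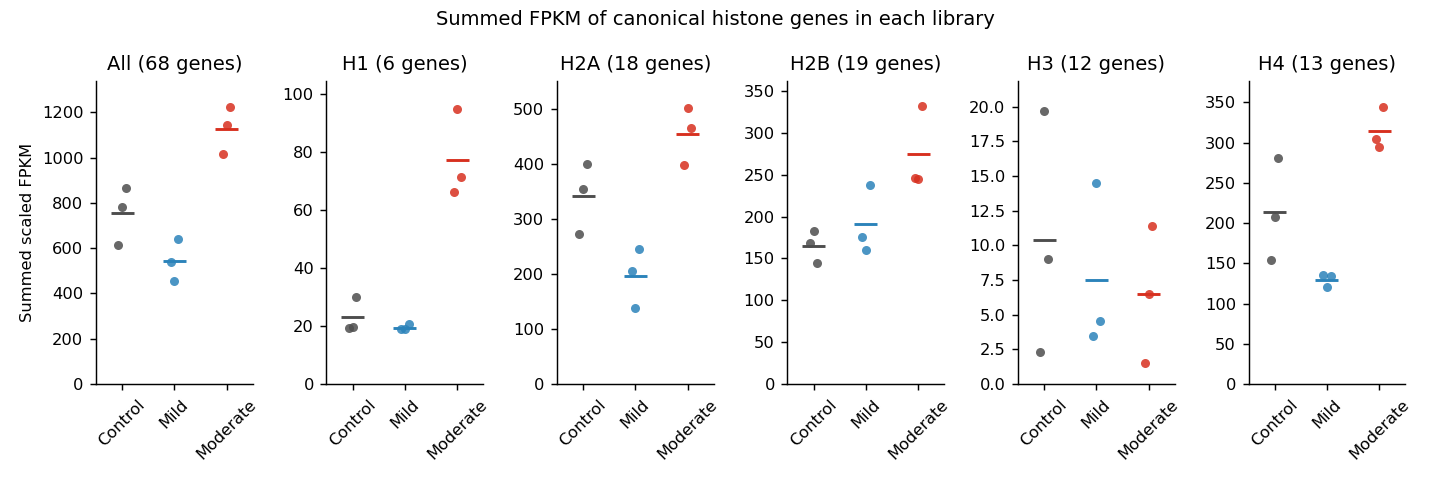
Summed scaled FPKM of all 68 canonical histone genes and of each class, each point a library and each bar the group mean; every panel has its own axis from 0. Moderate IOP libraries lie above the other groups for all genes together, H1, H2B and H4, and H3 stays below 20 FPKM in all libraries.

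The Moderate IOP and Control pools were compared to find the members that differ at the higher pressure. Of the 68 members, 52 passed the filter of a mean of at least 0.5 FPKM and were tested with limma together with all other genes, with FDR below 0.1 as the threshold for DEGs. Among all 13043 genes tested, 1.84% were DEGs in this comparison and 0.951% were higher in Moderate IOP. Of the 52 members, 4 (7.69%) were DEGs, all higher, namely Hist1h1e, Hist1h4c, Hist3h2ba and Hist1h2ac. Under 17 alternative settings Hist1h1e was always a DEG, whereas the call was lost under 13 for Hist1h2ac, under 7 for Hist3h2ba and under 1 for Hist1h4c, and the count fell to 2 under several. Hist1h1c, the second most abundant H1 gene, did not pass (log2 fold-change 1.17 ± 0.49, FDR = 0.29). The median log2 fold-change of the 52 was 0.37, beside 0.004 over all genes. The filter shaped this median in part. Hist1h3e, Hist1h4n, Hist2h4, Hist2h2ab and Hist2h2aa2 passed it only through Moderate IOP libraries, which favoured a rise. Hist1h1b, Hist1h4h and Hist2h3c1 passed it only through Control libraries, which favoured a fall.

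Hist1h1e encodes H1.4, a main linker histone of somatic cells. It measured 13.7, 12.8 and 24 FPKM in Control, 17.9, 14.7 and 16.3 FPKM in Mild IOP, and 59.3, 83.6 and 58.4 FPKM in Moderate IOP. The lowest Moderate IOP library, at 58.4 FPKM, was well above the highest of the other 6, at 24 FPKM, and those 6 overlapped between Control and Mild IOP. The log2 fold-change was 1.97 ± 0.23 (SE) against Control (FDR = 0.0038) and 1.96 ± 0.23 against Mild IOP (FDR = 0.004). It shared only 8.1% of its 100-base words with other genes, so few of its fragments could belong to a paralogue.

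Hist1h4c, an H4 gene, was found at 0, 0.806 and 3.41 FPKM in Control, was listed at 0 in all 3 Mild IOP libraries, and reached 11.7, 11.6 and 9.17 FPKM in Moderate IOP. These Moderate IOP values rested on 5.95, 16 and 8 fragments, and the Control values on at most 1.56. The Moderate IOP libraries lay above all others, while Control and Mild IOP overlapped at 0, with a log2 fold-change of 2.56 ± 0.44 against Control (FDR = 0.029) and an FDR of 0.004 against Mild IOP, where no fold is given. Under the 17 alternative settings the log2 fold-change against Control lay between 2.06 and 3.99. Of its 100-base words, 37.1% also occur in other genes, nearly all of them H4.

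Hist3h2ba encodes an H2B and was the second most abundant member. It stood at 81.5, 81 and 49.8 FPKM in Control, 71.7, 73.6 and 128 FPKM in Mild IOP, and 172, 129 and 199 FPKM in Moderate IOP. Control and Mild IOP overlapped, and the lowest Moderate IOP library was just above the highest Mild IOP library. The log2 fold-change was 1.24 ± 0.26 against Control (FDR = 0.058) and 0.9 ± 0.26 against Mild IOP (FDR = 0.071). Its neighbour Hist3h2a did not share this order. That H2A gene gave 149, 128 and 115 FPKM in Control, 97.6, 51 and 125 FPKM in Mild IOP and 128, 79.2 and 92.3 FPKM in Moderate IOP, with all groups overlapping and an FDR of at least 0.52 in each comparison. Hist3h2a lies within Trim17 and a predicted gene in GENCODE, so its fragments cannot be assigned to it alone.

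Hist1h2ac, an H2A gene, was measured at 9.02, 8.85 and 9.62 FPKM in Control, 5.38, 3.74 and 5.28 FPKM in Mild IOP and 18.8, 17.4 and 14.1 FPKM in Moderate IOP. The 3 groups were fully separate, in the order Mild IOP, Control, Moderate IOP. Its log2 fold-change was 0.8 ± 0.19 against Control (FDR = 0.098) and 1.62 ± 0.19 against Mild IOP (FDR = 0.004), and these values rested on 46.2, 18.5 and 82.6 fragments per group.

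Moderate IOP was then compared with Mild IOP, the pair of pools that both received beads. All comparisons share libraries, so they are not independent of each other. Of all genes tested, 10.2% were DEGs here and 7.03% were higher in Moderate IOP, against 13 of the 52 members (25%), all higher. The 13 became 8 without the filter on low values and 7 without Mild IOP replicate 2, where the DEGs among all genes fell from 1324 to 1009 and 518. Of 17 alternative settings, Hist1h2ae and Hist1h2ai each lost their call under 8 and Hist3h2ba under 6. The median log2 fold-change of the members was 0.48, beside -0.016 over all genes. The same members that passed the filter only through Moderate IOP enter this median. Hist2h3c2 and Hist3h2bb-ps passed it only through Mild IOP, which favoured a fall. The 13 comprised the 4 genes above, Hist1h4d and 8 more H2A genes.

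Hist1h4d gave 137, 199 and 272 FPKM in Control, 125, 116 and 124 FPKM in Mild IOP and 276, 265 and 300 FPKM in Moderate IOP. The Mild IOP libraries were low and close together, and the Control libraries spread from just above them into the Moderate IOP range. The log2 fold-change against Mild IOP was 1.2 ± 0.2 (FDR = 0.0095), and against Control Hist1h4d did not pass the threshold (0.52 ± 0.2, FDR = 0.25). None of its 100-base words occurs in another gene.

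The 9 H2A DEGs were Hist1h2ab, Hist1h2ac, Hist1h2ad, Hist1h2ae, Hist1h2af, Hist1h2ag, Hist1h2ah, Hist1h2ai and Hist1h2an, with log2 fold-changes between 1.62 and 2.44. All encode canonical H2A from the chromosome 13 cluster. Hist1h2ag was the clearest, at 15.1, 24.2 and 30.9 FPKM in Control, 8.19, 8.42 and 10.7 FPKM in Mild IOP and 33, 41.5 and 42.4 FPKM in Moderate IOP. The 3 groups did not overlap, and its log2 fold-change was 1.98 ± 0.24 (FDR = 0.004). Hist1h2ae showed how widely Control could vary within 1 pool, with 1.18, 11.4 and 15.9 FPKM in Control beside 5.96, 0.765 and 6.68 FPKM in Mild IOP and 22.1, 41.6 and 14.2 FPKM in Moderate IOP (log2 fold-change 2.44 ± 0.76, FDR = 0.087).

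Several of these H2A values were thin and shared. In Mild IOP, Hist1h2an rested on 3.11, 1.82 and 0.899 fragments, and Hist1h2af on 1.81, 2 and 0.369. H2A genes had a median of 79.6% of their 100-base words in common with other genes, against 4% for H1, so fragments could be divided among the copies and the 9 genes are not separate pieces of evidence. Hist1h2ao and Hist1h2ap are annotated over each other at both of their positions, and their split was unstable. Hist1h2ap was listed at 34.2, 0.00873 and 42.7 FPKM in the 3 Control libraries, whereas the sum of both genes was 51.2, 99.6 and 91 FPKM. In Mild IOP Hist1h2ap was at 0.0234, 0.00193 and 11.3 FPKM, and in Moderate IOP at 10.8, 33.8 and 80.5 FPKM, so its groups overlapped. The sum of both was 39.3, 30.6 and 47.4 FPKM in Mild IOP and 104, 145 and 161 FPKM in Moderate IOP, and on that scale the 3 groups were separate. In the same way Hist2h2aa1, at 60.2 ± 34.9, 34.7 ± 1.74 and 67.2 ± 33.4 FPKM in Control, Mild and Moderate IOP, overlaps Hist2h2aa2 at its position, and neither comparison with Moderate IOP called it (FDR = 0.85 and 0.22). These 9 loci each also overlap a predicted antisense gene, and the kit named in the study's methods is not described as stranded, so sense and antisense fragments cannot be told apart. Summing the 13 H2A genes of this cluster removes the division among them. This sum was 84.1, 182 and 178 FPKM in Control, 74.7, 51.1 and 83.3 FPKM in Mild IOP and 218, 294 and 317 FPKM in Moderate IOP. Control replicate 1 lay next to the Mild IOP range, yet no groups overlapped, and the Moderate IOP mean was 3.97 times that of Mild IOP and 1.87 times that of Control.

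**Figure D3:**
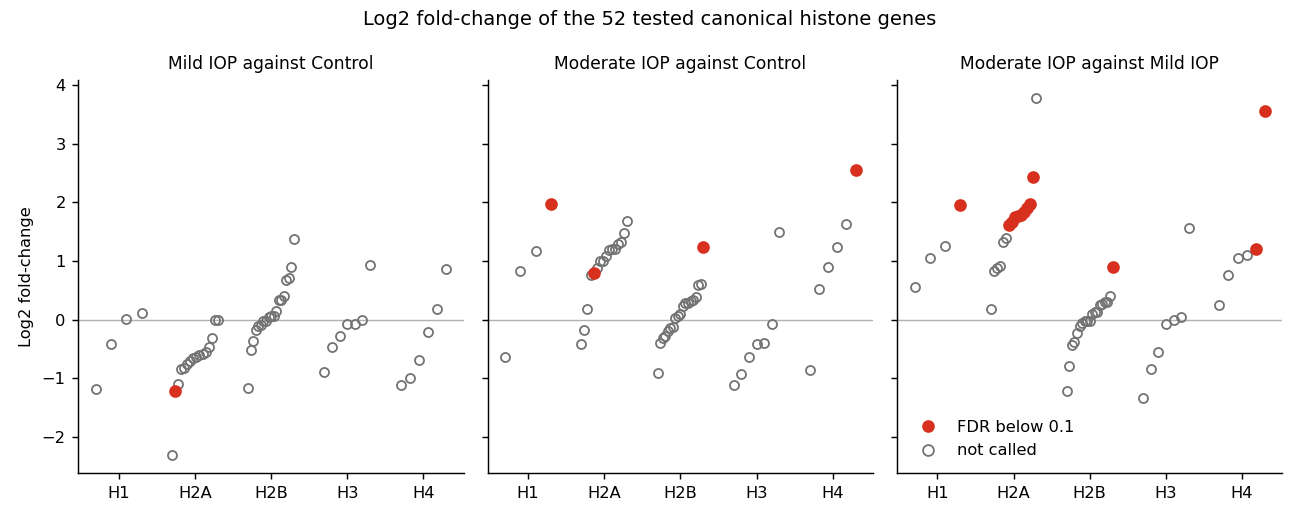
Log2 fold-change of the 52 tested canonical histone genes by class in the 3 comparisons, filled where FDR was below 0.1 with limma. All 16 H2A genes lie above 0 in Moderate IOP against Mild IOP, while the 19 H2B genes scatter around 0 with only Hist3h2ba called. Among the H2A genes, Hist2h2ab and Hist2h2aa2 passed the filter only through Moderate IOP replicate 2, which fixed their sign here. Hist1h3e, Hist1h4n and Hist2h4 also passed only through Moderate IOP libraries. H2A copies share sequence, so their points are not separate pieces of evidence.

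H2B genes of the same cluster did not share this pattern. The 15 of them summed to 83.6, 94.2 and 89.9 FPKM in Control, 93.4, 78.2 and 96.6 FPKM in Mild IOP and 68.2, 107 and 130 FPKM in Moderate IOP, with all groups overlapping. Hist1h2bc alone accounted for 43.1, 45.2 and 54.5 FPKM of the mean sums of 89.2, 89.4 and 102 FPKM. The sum thus mostly describes few of the 15 genes. Among the 19 tested H2B genes, 9 had a log2 fold-change above 0 and 10 below 0 in Moderate IOP against Mild IOP, and Hist3h2ba was the only DEG. All 16 tested H2A genes were above 0 in that comparison, 14 of 16 were above 0 in Moderate IOP against Control and 14 were below 0 in Mild IOP against Control. These H2A counts were the same without scaling and with upper-quartile scaling. With a median of 79.6% of their 100-base words shared with other genes, the H2A genes are not separate pieces of evidence here either. Of the 16, Hist2h2ab (5.25 FPKM) and Hist2h2aa2 (15 FPKM) passed the filter only through Moderate IOP replicate 2. They were at or near 0 in every other library, so the filter fixed their sign in both Moderate IOP comparisons.

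H2A and H2B genes are often arranged head to head, with a short shared promoter region between their starts. There were 13 such pairs, in 11 of which both genes were tested. The H2A gene had the larger log2 fold-change in all 11 pairs for Moderate IOP against Mild IOP, in 9 for Moderate IOP against Control and in none for Mild IOP against Control. The difference between partners was not tested. Several H2B partners lay near the floor, such as Hist1h2bq (mean 0.507 FPKM), Hist1h2br (0.668 FPKM), Hist1h2bj (1.19 FPKM) and Hist3h2bb-ps (1.31 FPKM). The log2(FPKM + 1) scale understates the change of such low genes. Hist1h2bc (47.6 FPKM) and Hist1h2bg (14.3 FPKM) were higher. The H2A copies also share sequence, so the pairs are not separate pieces of evidence. Hist1h2bc, the most abundant H2B of the cluster, measured 35.7, 43.7 and 49.9 FPKM in Control, 46.6, 34.4 and 54.7 FPKM in Mild IOP and 40.7, 58.4 and 64.5 FPKM in Moderate IOP, and its groups overlapped. The ratio of its partner Hist1h2ac to it was 0.253, 0.202 and 0.193 in Control, 0.116, 0.109 and 0.0965 in Mild IOP and 0.462, 0.298 and 0.218 in Moderate IOP, so Mild IOP was lower than both other groups in every library while Control and Moderate IOP overlapped. Hist1h2bg, the partner of Hist1h2ae, likewise overlapped between groups, at 12.3, 17.1 and 8.81 FPKM in Control, 14.9, 14.5 and 18 FPKM in Mild IOP and 7.39, 21 and 14.7 FPKM in Moderate IOP. The ratio of Hist1h2ae to it was 0.0954, 0.67 and 1.81 in Control, 0.4, 0.0527 and 0.372 in Mild IOP and 2.99, 1.98 and 0.971 in Moderate IOP. Moderate IOP was thus above Mild IOP in every library, and Control overlapped both. The locus of Hist1h2bc spans 8282 bases and its matched transcript has 2 exons, unlike the single exon of Hist1h2ac.

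**Figure D4:**
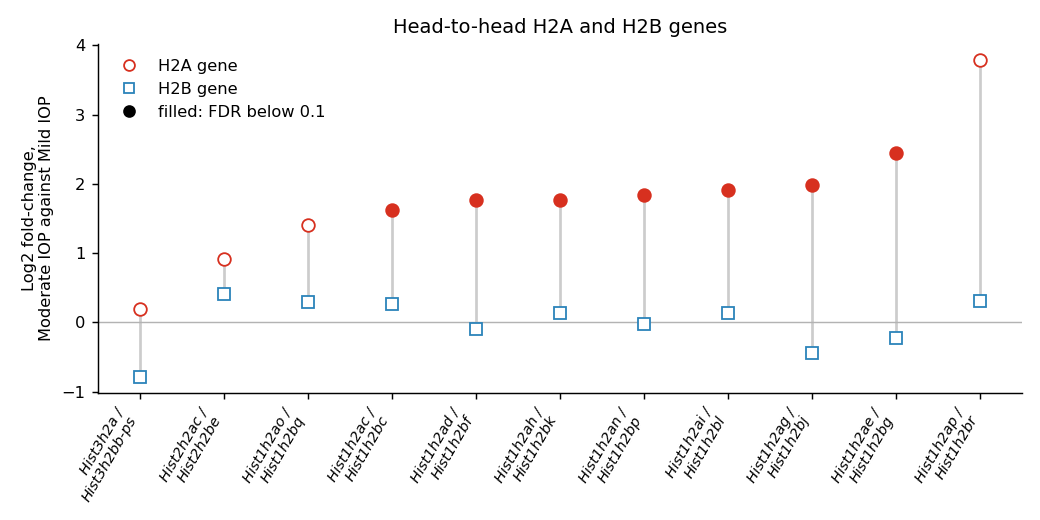
Log2 fold-change of Moderate IOP against Mild IOP for the 11 head-to-head pairs with both genes tested, circles for H2A and squares for H2B, filled where FDR was below 0.1. The H2A gene lies above its H2B partner in all 11 pairs, and no H2B partner is filled.

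The 239 bases between the starts of Hist1h2ac and Hist1h2bc are shown as an example of the stretch between head-to-head genes. They lie at chr13:23683960-23684198 and are given on the minus strand, in the direction of Hist1h2ac. Capitals mark the TATA box letters TATAAA. They also mark the letters CCAAT, which read ATTGG where they lie on the opposite strand. The octamer ATTTGCAT, which reads ATGCAAAT on the opposite strand, is marked as well. The region ahead of Hist1h1e, 250 bases at chr13:23622559-23622808 on the minus strand, is given below it with the same marking.

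Hist1h2ac to Hist1h2bc: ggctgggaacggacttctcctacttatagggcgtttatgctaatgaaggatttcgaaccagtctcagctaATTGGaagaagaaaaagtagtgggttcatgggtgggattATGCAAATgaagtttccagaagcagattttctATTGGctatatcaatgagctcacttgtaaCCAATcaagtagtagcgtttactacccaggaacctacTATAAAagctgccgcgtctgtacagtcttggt
Hist1h1e: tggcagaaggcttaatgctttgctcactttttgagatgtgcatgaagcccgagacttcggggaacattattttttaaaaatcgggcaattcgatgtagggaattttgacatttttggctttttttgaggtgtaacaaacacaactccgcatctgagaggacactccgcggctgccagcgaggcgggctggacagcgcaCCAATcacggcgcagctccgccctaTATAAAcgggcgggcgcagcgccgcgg

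The stretch between Hist1h2ac and Hist1h2bc held TATAAA 1 time, CCAAT 3 times and the octamer 1 time. The Hist1h1e region held TATAAA and CCAAT 1 time each. RefSeq windows (GRCm38.p6) from 250 bases before to 50 bases after the start were found for 62 members in 63 windows. On either strand, TATAAA occurred in 55.6% of them, CCAAT in 85.7% and the octamer, an element known from H2B promoters, in 22.2%. Over all 32851 windows these shares were 13.6%, 37.4% and 1.74%. A match of letters is a description and says nothing about the use of a site.

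Mild IOP was compared with Control to see how the members stand at the lower pressure. Among all genes tested, 0.399% were DEGs and 0.391% were lower in Mild IOP, and of the 52 members only Hist1h2ag was a DEG, lower by a log2 fold-change of -1.22 ± 0.24 (FDR = 0.086). This call was lost under 11 of 17 alternative settings, with an FDR of up to 0.28. Hist1h2ac (log2 fold-change -0.82, FDR = 0.16) and Hist1h4d (-0.68, FDR = 0.24) did not pass, although their Mild IOP libraries lay below all Control libraries. The median log2 fold-change was -0.19 over the 52 members, -0.64 over the 16 H2A genes and 0.06 over the 19 H2B genes, beside 0.006 over all genes. The members named above that passed the filter only through Control or only through Mild IOP enter these medians too.

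Low members with a large change in 1 pool rested on few fragments. Hist3h2bb-ps, marked by its symbol as a pseudogene of H2B, was at 0.299, 0.252 and 0 FPKM in Control, 5.29, 3.55 and 0 FPKM in Mild IOP and 0.47, 1.19 and 0.729 FPKM in Moderate IOP. The Mild IOP values came from 8, 3.99 and 0 fragments, the third Mild IOP library did not share them, and the FDR was 0.42 against Control. Hist2h4, an H4 gene, was listed at 17.4 FPKM in Moderate IOP replicate 3, from 16 fragments, and at 0 in the other 2 Moderate IOP libraries. Its other values were 0, 0.388 and 0 FPKM in Control and 1.02, 0 and 0 FPKM in Mild IOP, and 1 library therefore made its Moderate IOP mean (FDR = 0.55 against Control). None of the 7 tested H3 genes was a DEG in any comparison with limma, while the unadjusted p was below 0.05 for 0 of them in Mild IOP against Control, 1 in Moderate IOP against Control and 2 in Moderate IOP against Mild IOP. Of all genes tested, 10.2%, 15.3% and 21.8% had such a p. The H3 genes counted were Hist1h3e, in both Moderate IOP comparisons, and Hist2h3c2, in Moderate IOP against Mild IOP. Hist1h3e passed the filter only through Moderate IOP and Hist2h3c2 only through Mild IOP, so nothing is read from these counts. The 16 members that were not tested included 7 H4, 5 H3, 2 H2A and 2 H1 genes.

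The most abundant replacement histones exceeded every canonical member. H3f3b and H3f3a, which encode H3.3, averaged 680 and 545 FPKM, and H2afz, which encodes H2A.Z, 461 FPKM. Of 11 such genes 10 were tested, and 0 were DEGs against Control in either IOP group, although limma gave 3 of them (Mild IOP) and 2 (Moderate IOP) an unadjusted p below 0.05, a cut that 10.2% and 15.3% of all genes tested passed in these comparisons. In Moderate IOP against Mild IOP, 2 of the 10 were higher and 1 lower, where 10.2% of all genes were DEGs and 7.03% were higher. H2afz rose, from 365, 290 and 479 FPKM in Mild IOP to 616, 542 and 522 FPKM in Moderate IOP (log2 fold-change 0.59 ± 0.16, FDR = 0.061), as did H2afy (macroH2A1, 0.49 ± 0.14, FDR = 0.07), while H2afy2 (macroH2A2) fell (-0.58 ± 0.18, FDR = 0.091). These calls were lost under 6 (H2afz), 8 (H2afy) and 9 (H2afy2) of 17 alternative settings. H3f3b and H3f3a were not DEGs (FDR = 0.28 and 0.22).

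Genes for the making and handling of histone mRNA and proteins were read against the share of DEGs among all genes. Of 17 listed genes of histone mRNA processing and transcription, 15 were in the files and 14 were tested. None was a DEG against Control in either IOP group (0 and 3 at an unadjusted p below 0.05 with limma, beside 10.2% and 15.3% of all genes), where 0.399% and 1.84% of all genes were DEGs. In Moderate IOP against Mild IOP 1 of the 14 was a DEG, beside 10.2% of all genes. Slbp, whose protein binds the stem-loop, stood at 37.1, 31.5 and 33 FPKM in Control, 27.5, 21.8 and 31.2 FPKM in Mild IOP and 32.9, 41.8 and 33.8 FPKM in Moderate IOP (FDR of at least 0.17 in each comparison). Sympk, the scaffold symplekin of the cleavage complex, fell from 6.02, 8.96 and 7.11 FPKM in Mild IOP to 2.55, 2.43 and 2.78 FPKM in Moderate IOP (-1.21 ± 0.28, FDR = 0.031). Cpsf3, the endonuclease of that complex, and Ncbp2, a subunit of the cap-binding complex, were not DEGs in any comparison (FDR of at least 0.79 and 0.87). Among 15 tested histone chaperones, Daxx, an H3.3 chaperone, was the only DEG, lower in Moderate IOP than in Mild IOP (-0.66 ± 0.21, FDR = 0.089) beside the same 10.2%, and the comparisons with Control gave 0 DEGs (unadjusted p below 0.05 in 0 for Mild IOP and in 2 for Moderate IOP with limma, against the same shares of all genes). The call of Daxx was lost under 10 of 17 alternative settings. The most abundant chaperones, Npm1, Nap1l1 and Nap1l4, did not pass in any comparison.

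Genes of S phase and mitosis gave no DEG in any of the 3 comparisons, with 12 of 20 tested and 0 at an unadjusted p below 0.05 with limma. Of all genes 0.399%, 1.84% and 10.2% were DEGs in Mild IOP against Control, Moderate IOP against Control and Moderate IOP against Mild IOP, and 10.2%, 15.3% and 21.8% had such a p. Against Control, 0 DEGs among 12 genes is near this background. Pcna, the sliding clamp of replication and repair, averaged 86.8 FPKM, Ccne1 (cyclin E1) 12.2 FPKM and the helicase subunit Mcm7 10.2 FPKM. The markers of dividing cells were near 0. Mki67, Top2a, Ccnb1 and Cdk1 together summed to at most 0.951 FPKM in any library, with Cdk1 the most abundant at a mean of 0.29 FPKM, and Top2a and Cdc6 were at 0 in all 9 libraries.

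Markers of retinal cell types also differed between the pools, in different directions. The RGC markers, and at much lower levels the microglia and astrocyte markers, had the same order of group means as the histone sum. Without Sncg, the other 7 RGC markers summed to 569, 574 and 931 FPKM in Control, Mild and Moderate IOP, with Control and Mild IOP overlapping. Among these 7, Nefm, Pou4f1, Rbpms and Thy1 kept that order of means, while the most abundant, Nefl, averaged 343, 374 and 537 FPKM. The median log2 fold-change of all 8 in Mild IOP against Control was -0.18. The 8 RGC markers, led by Sncg with a mean of 980 FPKM, summed to 1431, 1521 and 1488 FPKM in Control, 1293, 1052 and 1301 FPKM in Mild IOP and 2421, 2269 and 2269 FPKM in Moderate IOP, and all 8 were above 0 in every library. They were higher DEGs in Moderate IOP for 2 of 8 against Control, beside 0.951% of all genes tested, and for 6 of 8 against Mild IOP, beside 7.03%. The 5 amacrine markers, led by Gad1 (519 FPKM), summed to 777 ± 22.4, 852 ± 31.3 and 562 ± 26.2 FPKM in Control, Mild and Moderate IOP. The 5 Müller glia markers, led by Apoe (95.3 FPKM), summed to 116 ± 6, 121 ± 15.2 and 191 ± 28 FPKM, and the 5 rod markers, led by Sag (119 FPKM), to 459 ± 46.2, 300 ± 22.6 and 290 ± 20 FPKM. Amacrine markers were lower DEGs for 2 of 5 in Moderate IOP against Control and for 3 of 5 against Mild IOP. Müller glia markers were higher DEGs for 2 of 5 in each of these comparisons. Rod markers were lower DEGs for 2 of 5 in Mild IOP against Control and for 3 of 5 in Moderate IOP against Control. Among all genes, 0.399% (Mild IOP against Control), 1.84% (Moderate IOP against Control) and 10.2% (Moderate IOP against Mild IOP) were DEGs. The 4 lens markers, led by Cryaa (37.5 FPKM), summed to 284, 304 and 229 FPKM in Control, to at most 1.49 FPKM in Mild IOP and to 0 in all Moderate IOP libraries. Cone, bipolar and microglia markers gave no DEG in any comparison with limma (unadjusted p below 0.05 in 1 bipolar and 1 microglia marker, both in Moderate IOP against Mild IOP), and their sums averaged 6.26, 6.75 and 7.41 FPKM (cone), 22.1, 29.2 and 26.3 FPKM (bipolar) and 10.2, 9.3 and 13.6 FPKM (microglia). The 3 astrocyte markers summed to 2.29, 1.42 and 4.72 FPKM in Control, Mild and Moderate IOP. The 2 of them that were tested were not DEGs in any comparison. Both had an unadjusted p below 0.05 with limma in Moderate IOP against Mild IOP, beside 21.8% of all genes tested. Endothelial markers stayed at or below 1.42 FPKM, with Cdh5 and Cldn5 at 0 throughout. The part of cell composition in the histone values was not tested by separating cells, but the values can be set beside the RGC markers.

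Relative to the RGC marker sum, all histone members together overlapped between the pools. They amounted to 43.1%, 51.6% and 58.1% of that sum in Control, 41.6%, 43% and 49.3% in Mild IOP and 42%, 50.3% and 53.9% in Moderate IOP, without separation of any group. Without Sncg among the markers, the groups overlapped as well, with means of 133%, 94.5% and 122%. The members called as DEGs are described on the same scale. Hist1h1e amounted to 0.957%, 0.84% and 1.61% of the RGC marker sum in Control, 1.39%, 1.39% and 1.25% in Mild IOP and 2.45%, 3.69% and 2.57% in Moderate IOP, where every Moderate IOP library was above the other 6. Of the 4 DEGs against Control, 3 (Hist1h1e, Hist1h4c and Hist3h2ba) had all Moderate IOP libraries above all Control libraries, and Hist1h2ac overlapped, beside 1.05% of all genes tested with such a separation. Of the 13 DEGs against Mild IOP, 11 were fully higher and 2 (Hist3h2ba and Hist1h2ai) overlapped, beside 0.721% of all genes tested. These members had already been called as higher, so nothing is read from the counts. These ratios carry no test, and their divisor differed between the pools, since RGC markers were DEGs themselves.

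**Figure D5:**
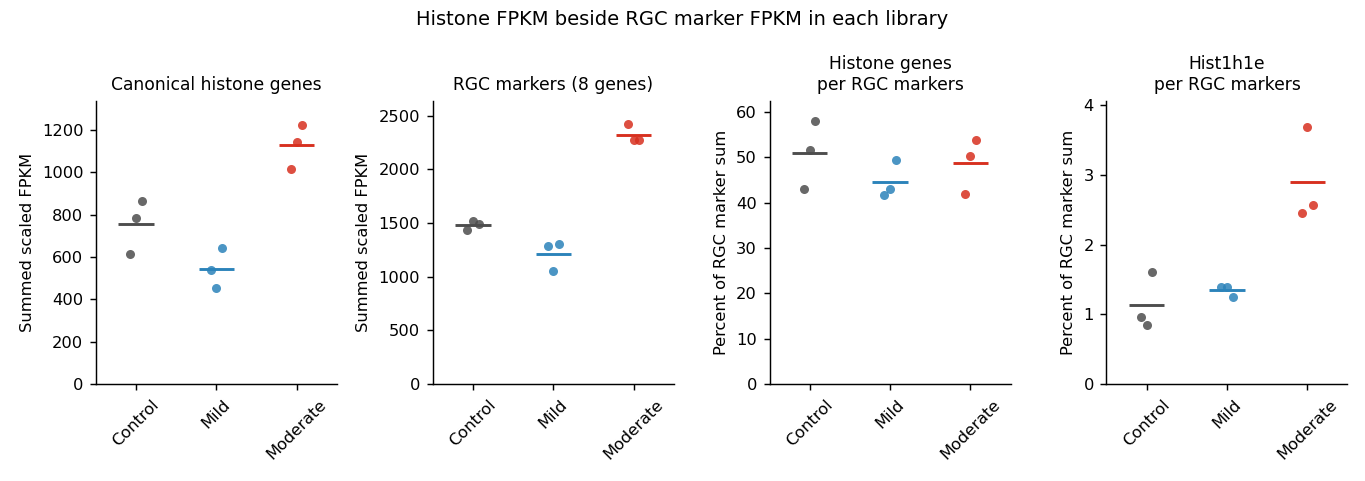
Summed scaled FPKM of the 68 canonical histone genes and of 8 RGC markers, the first as a percent of the second, and Hist1h1e as a percent of the RGC marker sum; each point is a library, each bar a group mean, and every axis starts at 0. The histone percent overlaps between all groups (41.6% to 58.1%), whereas Hist1h1e in Moderate IOP (2.45% to 3.69%) lies above every other library.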

How the data were processed

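The authors aligned paired reads from SMART-seq v4 and Nextera XT libraries to mm10 with bowtie2 and estimated expression with cufflinks. The labels also name FastQC, Trimmomatic, TopHat2 and Cuffdiff, and no sequencing batch. For each of the 9 libraries the authors deposited FPKM by gene locus, with the bounds of a confidence interval. These values are not counts, and depth was derived here. FPKM of loci with the same symbol was summed. Fragments were derived as (2 × FPKM / (upper bound − FPKM)) squared, and depth from genes with a GENCODE M21 transcript of at least 2000 bases and at least 100 fragments. Such intervals cover counting error only. The labels and the study differ in the RNA input stated.

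Scaling between libraries used median-of-ratios factors, and log2(FPKM + 1) was taken, which understates the change of low genes. Genes with a mean of at least 0.5 and no failed estimate (13043) were fitted with limma 3.58.1 (R 4.3.3) over all 9 libraries, with a variance trend and Benjamini-Hochberg adjustment within each comparison. The procedure was tested on simulated data. Tables and plots used Python 3.11.15, pandas 2.3.3 and matplotlib 3.10.9.

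Genes named in the text were mainly the DEGs among the members, the 12 highest members, the 3 largest fold-changes per comparison, 2 genes named in the study and, of each comparison list, the DEGs and the 3 highest. Some others were named outside this rule, among them the remaining H1 genes, Hist2h2aa2, Hist2h2ab and several cell-type markers. The members and lists were chosen with earlier results of these data known. Of the 17 listed genes of histone mRNA processing and transcription, 15 were found in the files. Alternatives were other scalings, pseudocounts and filters, the variance of 2 groups, a replicate block and leaving out each library. The division by RGC markers and the pair ratios were added after the data had been seen.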

Additional observations from a re-analysis of the deposited data

How the results depend on the processing

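The number of members that were DEGs depended on the settings, less so for Moderate IOP against Mild IOP. For Mild IOP against Control the main count of 1 became 0 without scaling, with upper-quartile scaling, without the filter and with the variance of the 2 groups, and lay between 0 and 2 when single libraries were left out. For Moderate IOP against Control the count of 4 became 2 with a pseudocount of 0.1, without the filter and with the replicate block, and lay between 2 and 4 with single libraries left out (2 without Control replicate 1, Moderate IOP replicate 1 or Moderate IOP replicate 3). For Moderate IOP against Mild IOP the count of 13 became 8 without the filter and lay between 7 (without Mild IOP replicate 2) and 15 with single libraries left out. The count over all genes fell with it, from 1324 to 1009 without the filter and to 518 without Mild IOP replicate 2. Hist1h1e remained a DEG in both Moderate IOP comparisons under all 17 alternatives, as did Hist1h2ac, Hist1h2af, Hist1h2ag, Hist1h2an, Hist1h4c and Hist1h4d against Mild IOP. Of the other DEGs against Mild IOP, Hist1h2ae and Hist1h2ai were kept under 9 (FDR up to 0.3 and 0.28), Hist1h2ad under 13, Hist1h2ab under 15 and Hist1h2ah under 16. Hist1h2ac against Control was kept under 4 of the 17 (FDR 0.091 to 0.23), Hist3h2ba against Control under 10 and against Mild IOP under 11, Hist1h4c against Control under 16, and Hist1h2ag in Mild IOP against Control under 6. In Moderate IOP against Mild IOP, Sympk was kept under 16, H2afz under 11, H2afy under 9, H2afy2 under 8 and Daxx under 7 (FDR up to 0.14, 0.17, 0.22, 0.23 and 0.21). No fold-change of a DEG named here changed sign.

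The ratios of summed histone FPKM moved little under the other scalings. Without scaling and with upper-quartile scaling they were 0.746 and 0.764 for Mild IOP against Control (0.721 in the main setting). For Moderate IOP they were 1.46 and 1.48 against Control (main 1.49), and 1.95 and 1.94 against Mild IOP (main 2.07). Without single libraries they lay between 0.656 and 0.781 (Mild IOP against Control), 1.37 and 1.61 (Moderate IOP against Control) and 1.91 and 2.28 (Moderate IOP against Mild IOP). Relative to the summed RGC markers, Moderate IOP against Control became 0.957, or 0.914 without Sncg among the markers, on the other side of 1, and Moderate IOP against Mild IOP became 1.09 or 1.29.

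The replicate numbers of the labels did not pair the libraries. Deviations from the group means correlated between -0.005 and 0.044 for same-numbered libraries. With the replicate block, 1, 2 and 12 members were DEGs for Mild IOP against Control, Moderate IOP against Control and Moderate IOP against Mild IOP. No setting varied the depth, and only 12 to 25 members rested on at least 10 fragments in a library.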
